A study of Mus musculus with 479 samples.

Results

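Wild-type kidneys of the Dchs1 mouse line were ranked by their Cyp4a14 level in TPM, reads per transcript length scaled to an equal total in every library, and the 10 libraries at the top of the ranking were set against the 10 at the bottom. These 20 libraries come from 30 wild-type kidneys of that line, in a series of 479 libraries of which 120 are kidney. The same ranking was repeated in the 30 wild-type kidneys of the Fat4 line, which share no library with the first set, and in the 30 heterozygous kidneys of each line. The series measured messenger RNA in heart, kidney, liver and lung of mice carrying 1 disrupted copy of Dchs1 or of Fat4 (Dchs1+/- or Fat4+/-, VelociGene alleles) and of wild-type littermates, all on the C57BL/6NTac strain. The wild-type kidneys carry no engineered allele and had no treatment named in the labels. The sources used here give no sex, age, feeding state or time of collection. Both ends of the ranking are thus libraries of 1 genotype and 1 strain, picked by the level of 1 transcript, and are not groups of the study. The labels do not say that every library is a separate animal, so the p-values measure the spread between libraries.

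Cyp4a14 is a cytochrome P450 of the fatty acid omega-hydroxylase family. It is a classical target of PPAR alpha, the nuclear receptor that senses fatty acids in liver and in the proximal tubule of the kidney and switches on their oxidation in peroxisomes and mitochondria during fasting. The proximal tubule makes most of its energy from fatty acids. Fibrinogen, named by Fga as the second marker of these kidneys, is mainly a liver product, and its genes are also switched on in tubule cells of injured kidneys.

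Cyp4a14 (gene 13119, GRCm38 chromosome 4, 115486200 to 115496158) ran from 36.1 to 2055 TPM over the 30 wild-type kidneys of the Dchs1 line, a 57.0-fold range, with a median of 314 TPM. The top 10 lay between 520 and 2055 TPM with a median of 646, the middle 10 between 237 and 486 TPM, and the bottom 10 between 36.1 and 228 TPM with a median of 142. The ranking is continuous at both limits, since the last library inside the top end was at 520 TPM and the first outside it at 486, and the first inside the bottom end was at 228 and the last outside it at 237. In the Fat4 line Cyp4a14 ran from 52.9 to 1328 TPM, a 25.1-fold range, and the limits fell between 549 and 538 TPM at the top and between 322 and 319 TPM at the bottom. These values chose the libraries and carry no test. The kidneys of Dchs1 heterozygotes were high and narrow, at 1228 to 2597 TPM or a 2.11-fold range, and 1 of 30 wild-type kidneys in each line reached the lowest of them. Fat4 heterozygotes spread over 129 to 2243 TPM, a 17.3-fold range.

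**Figure D1:**
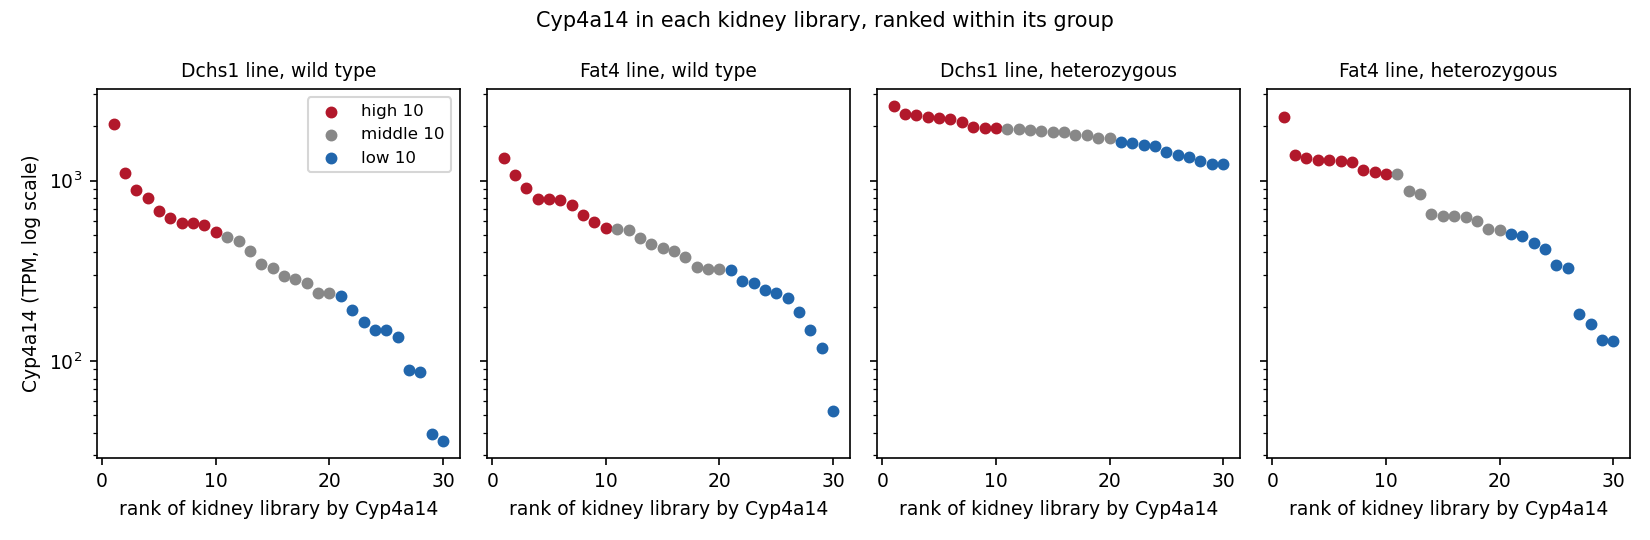
Cyp4a14 TPM (log scale) of each of the 30 kidney libraries in 4 groups, ordered by rank, with the top 10 in red, the middle 10 in grey and the bottom 10 in blue. Wild-type kidneys run from 2055 to 36.1 TPM in the Dchs1 line and from 1328 to 52.9 TPM in the Fat4 line, while Dchs1 heterozygotes stay between 1228 and 2597 TPM. The steps are uneven, as between the first Dchs1 wild-type library at 2055 TPM and the second at 1096 TPM.

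Library totals ran from 10720364 to 32282525 reads over the 120 kidneys. Their medians were 17996820 and 20685607 in the high and low ends of the Dchs1 line (permutation test, 2-sided, p = 0.121), and 16654160 and 17373544 in the Fat4 line (p = 0.587). Library numbers fall into stretches broken by gaps, and a difference in stretch between the ends was not shown (Fisher's exact test, p of 0.582 to 1 over the 4 groups). All 60 wild-type kidneys had Xist at 0.0521 to 0.750 CPM (counts scaled by library total, without regard to transcript length) and the Y-linked Ddx3y at 31.3 to 70.0 CPM. Kidney markers were present in every one of them, with Slc34a1 of the proximal tubule at 1254 to 2908 CPM, Umod of the thick ascending limb at 527 to 2194 CPM and Aqp2 of the collecting duct at 38.4 to 189 CPM. The adrenal enzyme Cyp11b1 was at or near 0 (at most 0.0941 CPM), as was pancreatic Prss2 (at most 0.0494 CPM), and hepatocyte Alb reached 6.85 CPM. Adipocyte transcripts varied widely between the kidneys, with Adipoq at 1.48 to 26.1 CPM and Ucp1 of brown fat at 0.169 to 20.5 CPM, and their part in the results was not tested. In the Dchs1 wild types 3 libraries stood apart from the rest, those ranked 1, 9 and 25 by Cyp4a14, and 1646 genes were called without them against 1706 with them. For named genes, values without the first or the last library of a ranking are given where leaving it out ended a call or moved the change by over 1.5 times. Many of them were named by their p-value, change or correlation in the Dchs1 line, so ends that do not overlap there are no independent result. The share of all genes whose ends do not overlap was not taken.

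In the Dchs1 line, 759 of 14046 tested genes were higher in the kidneys high in Cyp4a14 (5.4%) and 947 were lower (6.74%), with an adjusted p under 0.05 in edgeR's quasi-likelihood test. In the Fat4 line, 274 of 13898 were higher (1.97%) and 190 lower (1.37%). Cyp4a14 itself was left out of the adjustment. Thus 44.5% of the calls were higher in the Dchs1 line and 59.1% among Fat4 kidneys, whereas limma on log2(TPM + 1) called 447 higher of 595 and 501 higher of 559. That fit differs in the unit, the filter and the test. Another scaling alone, DESeq2's size factors in edgeR, gave 44.3% and 60.7%, and the number stretch as a covariate gave 43.6% and 48.8%. Of the genes called in both lines, 276 moved in the same direction and 0 in opposite ones. The 147 higher in both made up 19.4% of the higher genes of the Dchs1 line and 53.6% of those of the Fat4 line, and the 129 lower in both made up 13.6% and 67.9%. Without the library ranked first, the counts were 1383 genes in the Dchs1 line and 285 among Fat4 kidneys, against 1706 and 464 with it.

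Of 5 other Cyp4a genes tested, 3 were higher and 0 lower in the kidneys high in Cyp4a14 of each line. Cyp4a10 (chromosome 4, 115518287 to 115533649), a neighbour of Cyp4a14 and another PPAR alpha target, was at 1044, 1142 and 2147 CPM (lowest, median, highest) in the 10 high kidneys of the Dchs1 line and at 287, 592 and 769 CPM in the 10 low ones. The ends do not overlap, and the log2 change was 1.20 ± 0.16 (SE, adjusted p = 5.25e-05). Fat4 kidneys showed the same order, with the high ones at 1064, 1436 and 1920 CPM and the low ones at 400, 690 and 895 CPM, again without overlap, and the change was 1.07 ± 0.13 (adjusted p = 1.52e-04). Cyp4a12b was higher by 0.51 ± 0.14 (adjusted p = 0.0187) and 0.67 ± 0.15 (adjusted p = 0.0123) in the Dchs1 and Fat4 lines. Cyp4a32 passed the test in the Dchs1 line, at 0.96 ± 0.27 (adjusted p = 0.021), and had 0.65 ± 0.22 (adjusted p = 0.0977) in the Fat4 line, whereas Cyp4a31 had 0.27 ± 0.11 (adjusted p = 0.108) and passed at 0.42 ± 0.09 (adjusted p = 0.0119). Cyp4a12a, the androgen-dependent member of the family, did not pass in either line, at -0.27 ± 0.16 and -0.24 ± 0.11. Per transcript length the family is led by Cyp4a10, at median levels of 823 TPM in the high and 360 in the low kidneys of the Dchs1 line, beside 646 and 142 TPM for Cyp4a14, 357 and 259 for Cyp4a31, 107 and 120 for Cyp4a12a, 26.8 and 17.4 for Cyp4a12b, and 2.51 and 1.24 for Cyp4a32. How the deposited estimated counts treat reads that fit several similar genes is not known here, and values of Cyp4a10, Cyp4a31 and Cyp4a32 may hold reads of Cyp4a14.

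Of 24 listed genes of the PPAR alpha and fasting response, 23 were tested, and 16 of them were higher and 0 lower in the Dchs1 line, with a median log2 change of 0.62 beside 0.0074 over all genes tested. The Fat4 line gave 18 higher and 0 lower, with a median of 0.61 beside -0.0013. Of these, 15 were higher in both lines, from the peroxisomal enzymes Ehhadh and Acaa1b to the mitochondrial Hadha, Hadhb and Slc25a20. Fgf21, the fasting hormone, was too low to test, at a median of 0.197 CPM in the high and 0.0434 CPM in the low kidneys of the Dchs1 line. Cpt1a, which admits fatty acids to mitochondria, had log2 changes of 0.12 ± 0.09 and 0.19 ± 0.07 and passed in neither line, and the medium-chain dehydrogenase Acadm had -0.08 ± 0.06 and 0.19 ± 0.07. Levels of transcripts in whole kidney do not tell more RNA per cell apart from more cells that make it.

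Plin2, the coat protein of lipid droplets (chromosome 4, 86626910 to 86670217), had one of the smallest p-values of the Dchs1 line. It was at 212, 475 and 933 CPM in the high kidneys and at 73.9, 98.2 and 150 CPM in the low ones. The ends did not overlap, and the log2 change was 2.25 ± 0.20 (adjusted p = 9.11e-07). Among Fat4 kidneys Plin2 was at 203, 352 and 904 CPM against 84.9, 144 and 216 CPM, where 9 of 10 high kidneys lay above every low one, with a change of 1.60 ± 0.23 (adjusted p = 4.17e-04). The thioesterases Acot1 and Acot2, which release fatty acids from coenzyme A in the cytosol and in mitochondria, were higher by 1.31 ± 0.13 and 1.24 ± 0.11 in the Dchs1 line and by 0.99 ± 0.12 and 0.89 ± 0.13 in the Fat4 line. For Acot1 the high kidneys lay at 246, 283 and 428 CPM and the low ones at 75.2, 127 and 157 CPM in the Dchs1 line.

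Pdk4, which blocks the entry of pyruvate into the citric acid cycle, was at 271, 396 and 1323 CPM against 85.6, 125 and 190 CPM in the Dchs1 line, a change of 1.94 ± 0.26 that was 1.16 ± 0.20 in the Fat4 line. Creb3l3, a membrane-bound transcription factor of the fasted liver, was scarce but among the most changed, at 3.36, 7.15 and 11.2 CPM in high and 0.471, 1.08 and 3.82 CPM in low kidneys (2.29 ± 0.31, adjusted p = 5.25e-05, and 1.67 ± 0.23 in the Fat4 line). Fabp1, the liver fatty acid carrier, was at 2.20, 2.74 and 5.89 CPM against 0.375, 1.04 and 3.63 CPM, where the ends overlapped (1.44 ± 0.30, and 1.09 ± 0.24 in the Fat4 line).

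**Figure D2:**
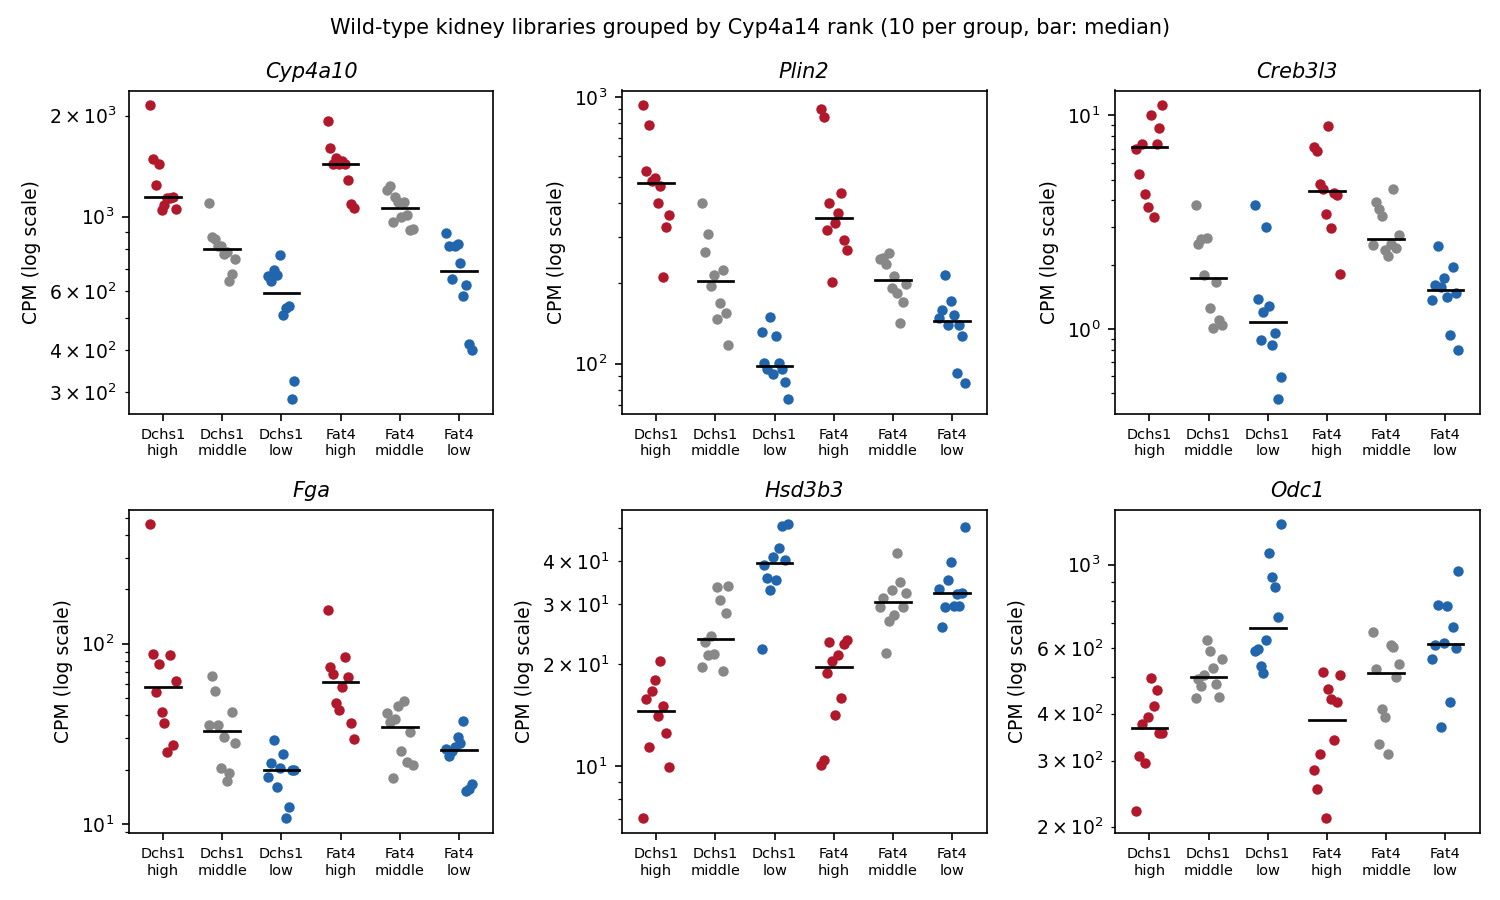
CPM (log scale) of 6 genes in each wild-type kidney library, 10 libraries per group by Cyp4a14 rank (high in red, middle in grey, low in blue) in both lines, with a bar at the median. Cyp4a10, Plin2 and Creb3l3 step down from high to low and Hsd3b3 and Odc1 step up, and 1 library of the high end of the Dchs1 line has Fga at 459 CPM.

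The promoters of the PPAR alpha list were read for the repeat that PPAR alpha binds with its partner RXR, 2 copies of AGGTCA with 1 base between them, on both strands of the 250 bases before each listed start and with up to 2 mismatches. RefSeq gave a promoter for 18 members, of which 5 held a match (27.8%), against 1005 of 27025 genes overall (3.72%). Of the members higher in both lines, 12 had a promoter and 3 held a match (25%). These are Creb3l3, Fabp1 and Plin2, shown here 5′ to 3′ on the gene's strand (RefSeq, GRCm38.p6) with the match in capitals, beside Fga, which holds none.
Creb3l3, chr10:81092592-81092841, minus strand: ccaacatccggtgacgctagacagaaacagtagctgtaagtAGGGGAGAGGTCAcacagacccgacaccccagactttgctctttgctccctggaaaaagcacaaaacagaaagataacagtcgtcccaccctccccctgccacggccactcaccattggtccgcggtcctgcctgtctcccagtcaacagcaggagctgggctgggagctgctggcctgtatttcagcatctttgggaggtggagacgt
Fabp1, chr6:71199629-71199878, plus strand: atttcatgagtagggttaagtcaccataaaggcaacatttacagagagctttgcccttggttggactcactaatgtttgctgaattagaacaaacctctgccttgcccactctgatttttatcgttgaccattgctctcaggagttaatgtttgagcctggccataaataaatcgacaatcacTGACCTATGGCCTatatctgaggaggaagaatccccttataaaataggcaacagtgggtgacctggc
Plin2, chr4:86670060-86670309, minus strand: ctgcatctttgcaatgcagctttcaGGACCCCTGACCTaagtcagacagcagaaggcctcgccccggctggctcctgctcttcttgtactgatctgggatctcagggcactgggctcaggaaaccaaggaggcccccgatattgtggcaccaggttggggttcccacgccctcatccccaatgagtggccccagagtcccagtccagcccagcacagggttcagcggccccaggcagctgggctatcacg
Fga, chr3:83025903-83026152, plus strand: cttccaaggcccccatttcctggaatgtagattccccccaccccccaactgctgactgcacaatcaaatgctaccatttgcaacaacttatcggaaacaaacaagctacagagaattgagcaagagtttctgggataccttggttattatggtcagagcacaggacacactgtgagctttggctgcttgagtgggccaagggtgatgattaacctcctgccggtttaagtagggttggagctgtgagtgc
The match has 2 mismatches in Creb3l3, 209 to 197 bases before the start, where a second listed start of the gene has none. It has 1 mismatch in Fabp1, 67 to 55 bases before the start, and 2 in Plin2, 225 to 213 bases before it, both on the opposite strand. Over all genes higher in both lines the share was 7 of 119 promoters (5.88%), and over those lower in both 4 of 101 (3.96%). A match describes letters in this window and is not a site of binding.

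The 3 fibrinogen chains, which lie side by side on chromosome 3, were higher in both lines. Fga (chromosome 3, 83026153 to 83033627), the alpha chain, was named together with Cyp4a14 when these kidneys were chosen, so its change in the Dchs1 line is no independent support. It was at 25.2, 57.7 and 459 CPM in the high kidneys of the Dchs1 line and at 10.8, 20 and 29.2 CPM in the low ones, with 8 of 10 high kidneys above every low one. The log2 change was 2.32 ± 0.43 (adjusted p = 0.00103), and 1.52 ± 0.23 (adjusted p = 1.27e-04) without the library ranked first, which holds the 459 CPM. Fat4 kidneys had Fga at 29.8, 61.6 and 154 CPM against 15.3, 25.8 and 37.4 CPM, a change of 1.42 ± 0.23 (adjusted p = 0.00106), and 1.19 ± 0.19 without the first library. Fgg, the gamma chain, changed by 2.11 ± 0.43 in the Dchs1 line, 1.39 ± 0.25 without the first library, and by 1.25 ± 0.22 in the Fat4 line. Fgb, the beta chain, was scarce, at 0.623, 1.62 and 5.93 CPM against 0.152, 0.478 and 2.58 CPM in the Dchs1 line, and changed by 1.67 ± 0.46 (adjusted p = 0.0196) and 1.32 ± 0.27 (adjusted p = 0.00827). Per transcript length the chains were uneven, with medians of 25 TPM for Fga, 11.5 for Fgg and 1.56 for Fgb in the high kidneys of the Dchs1 line. Over the whole ranking of 30 libraries, Fga followed Cyp4a14 with a Spearman correlation of 0.78 and a Pearson correlation of 0.75 (0.79 and 0.77 in the Fat4 line), as descriptions of these libraries.

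Of 10 acute phase genes tested, 6 were higher and 0 lower in the Dchs1 line, with a median change of 0.72. Those 6 include the neighbours Fga, Fgb and Fgg, and Fga was named when these kidneys were chosen. The count and median are thus not independent of that choice. Of all genes tested there, 5.4% were higher. The Fat4 line had 4 of 9 higher, namely the 3 fibrinogen chains and the copper carrier Cp, with a median of 0.31. Its share of higher genes over all those tested was 1.97%. Serpina3n, a protease inhibitor of the acute phase, was at 1.12, 2.31 and 3.95 CPM against 0.624, 1.01 and 1.37 CPM in the Dchs1 line (1.32 ± 0.21, adjusted p = 2.7e-04). Its change was 0.22 ± 0.19 (adjusted p = 0.574) in the Fat4 line, and its ends overlapped in both lines. The tubule injury list had 4 of 13 higher and 0 lower in the Dchs1 line (median 0.22) and 1 of 13 higher in the Fat4 line (median 0.05). The member shared by both was Havcr1, the kidney injury molecule, at 1.08 ± 0.33 (adjusted p = 0.0321) and 0.96 ± 0.23 (adjusted p = 0.0188). Without the library ranked first the injury count of the Dchs1 line was 2, and Havcr1 had an adjusted p of 0.0504. The call of Havcr1 was also lost with 5 libraries at each end in both lines. In the Fat4 line it was lost with 15 libraries at each end and with a ranking by CPM as well.

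The carbonyl reductases Cbr3 and Cbr1 were among the genes with the smallest p-values. Cbr3 was at 3.42, 4.54 and 6.40 CPM in high and 0.749, 1.54 and 2.19 CPM in low kidneys of the Dchs1 line, without overlap (1.62 ± 0.16, adjusted p = 1.68e-06), and had 0.85 ± 0.24 (adjusted p = 0.0478) in the Fat4 line, a call lost there without the first or the last library. Cbr1 was higher by 0.99 ± 0.11 and 0.58 ± 0.12. The enzymes of the NRF2 response to oxidants had 6 of 12 members higher and 0 lower in the Dchs1 line (median 0.24) and 4 higher and 0 lower in the Fat4 line (median 0.23), with Nqo1, Hmox1 and Srxn1 in both. Hmox1, heme oxygenase, was at 59.2, 82.3 and 198 CPM against 22.7, 32.1 and 47.5 CPM in the Dchs1 line (1.52 ± 0.19, adjusted p = 1.95e-05). The ends of Hmox1 overlapped in the Fat4 line, where the change was 0.68 ± 0.17 (adjusted p = 0.0249), a call lost without the first library. The amino acid response driven by ATF4 had 5 of 10 members higher and 0 lower in the Dchs1 line (median 0.60) and 3 in the Fat4 line (median 0.30), and Psat1, an enzyme of serine synthesis, was higher by 0.99 ± 0.16 and 0.61 ± 0.10.

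Of 17 genes tested of peroxisomes and branched fatty acid oxidation, 4 were higher, 6 lower and 7 not called in the Dchs1 line, and 3 were higher, 2 lower and 12 not called in the Fat4 line. With limma on log2(TPM + 1) these were 3 and 2 in the Dchs1 line and 7 and 1 in the Fat4 line. Over all genes limma called 447 higher and 148 lower of 12410 in the Dchs1 line. In the Fat4 line it called 501 higher and 58 lower of 12567. Pex11a, which drives the division of peroxisomes, was higher by 0.50 ± 0.08 and 0.47 ± 0.09. Amacr, the racemase of branched-chain and bile acid intermediates, was lower, at 59.0, 115 and 136 CPM in high and 168, 209 and 263 CPM in low kidneys of the Dchs1 line. Its change was -0.98 ± 0.12 (adjusted p = 1.16e-05) without overlap of the ends, and -0.62 ± 0.12 (adjusted p = 0.00374) in the Fat4 line.

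The steroid dehydrogenases Hsd3b3 and Hsd3b2 were lower in both lines. Hsd3b3 (chromosome 3, 98741476 to 98764540) was at 7.05, 14.6 and 20.4 CPM in high kidneys and at 22, 39.6 and 51.3 CPM in low ones in the Dchs1 line, and at 10.1, 19.6 and 23.5 CPM against 25.6, 32.2 and 50.5 CPM in the Fat4 line. All 10 high kidneys lay below every low one in both lines, with changes of -1.48 ± 0.15 (adjusted p = 3.7e-06) and -0.91 ± 0.15 (adjusted p = 8.94e-04). Hsd3b3 was named by its p-value in the Dchs1 line, so the separation there is no independent result. Hsd3b2, its neighbour, changed by -1.52 ± 0.21 and -0.88 ± 0.20. These copies are similar in sequence, so reads may be divided wrongly between them. Sap30, a subunit of a histone deacetylase complex, and Ggct, an enzyme of glutathione breakdown, were also lower, with changes of -0.70 ± 0.07 and -0.78 ± 0.08 in the Dchs1 line and -0.40 ± 0.08 and -0.59 ± 0.11 in the Fat4 line. The sodium-proton exchanger Slc9a8 was at 23.4, 25.9 and 38.0 CPM against 48.4, 58.1 and 101 CPM in the Dchs1 line (-1.22 ± 0.13, adjusted p = 4.41e-06) and had -0.46 ± 0.15 (adjusted p = 0.0916) in the Fat4 line, or -0.27 ± 0.09 (adjusted p = 0.10) without the library ranked last.

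Among the largest changes outside these lists, several were of scarce transcripts. Kcnip2, a potassium channel partner, was at 4.83, 7.74 and 11.4 CPM against 1.53, 2.95 and 4.63 CPM in the Dchs1 line, without overlap of the ends there or in the Fat4 line (1.43 ± 0.18 and 1.18 ± 0.15). The uncharacterised transcript 4833411C07Rik was higher by 1.82 ± 0.37 and 1.20 ± 0.31. The ubiquitin ligase Rnf180 was lower, at -1.63 ± 0.23, in the Dchs1 line and had -0.84 ± 0.34 (adjusted p = 0.164) in the Fat4 line, or -0.55 ± 0.29 (adjusted p = 0.296) without the library ranked last. The T-box factor Tbx10 (-1.57 ± 0.19 and -1.05 ± 0.19), the chemokine Ccl28 (-1.54 ± 0.24 and -0.88 ± 0.23) and the collagen Col19a1 (-1.52 ± 0.17 and -0.98 ± 0.23) were lower in both lines. The call of Ccl28 in the Fat4 line was lost without the library ranked first or last, as was that of 4833411C07Rik. The pseudogene Atp6v0c-ps2 had the largest fall of the Dchs1 line (-4.33 ± 1.24), which rests on 1 low library at 217 CPM, where the other low kidneys lay between 0 and 4.33 CPM.

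Genes of the straight proximal tubule (segment 3) had 0 of 14 members higher and 6 lower in the Dchs1 line, with a median of -0.35, and those of segments 1 and 2 had 0 of 16 higher and 3 lower, with a median of -0.21. Each list had 1 lower member in the Fat4 line, where the medians were 0.05 and -0.10. With limma on log2(TPM + 1), the lower members in the Dchs1 line were 4 of 13 and 1 of 16. Over all genes, limma called 148 of 12410 lower there, against 947 of 14046 in edgeR. Acy3, an aminoacylase, was at 548, 849 and 1032 CPM in high and 1117, 1490 and 1716 CPM in low kidneys of the Dchs1 line, without overlap (-0.78 ± 0.11), and changed by -0.43 ± 0.10 (adjusted p = 0.013) in the Fat4 line. Slc7a13, an amino acid carrier of segment 3, changed by -1.0 ± 0.14 and had -0.48 ± 0.14 (adjusted p = 0.0593) in the Fat4 line. Slc34a1, the phosphate carrier of the convoluted tubule, changed by -0.46 ± 0.11 (adjusted p = 0.00814) and had -0.29 ± 0.09 (adjusted p = 0.0922). The summed CPM of the segment 3 list overlapped between the ends, at 17990 to 23570 in high and 21460 to 30470 in low kidneys of the Dchs1 line, and that of segments 1 and 2 did as well, at 4919 to 8307 and 5871 to 10660. The part of tubule composition in the other changes was not tested.

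Sex-biased kidney enzymes had 0 of 13 members higher and 6 lower in the Dchs1 line (median -0.35), and 2 lower in the Fat4 line, Hsd3b2 and Odc1. Odc1, which starts polyamine synthesis and is driven by androgen in mouse kidney, was at 220, 366 and 497 CPM in high and 513, 678 and 1280 CPM in low kidneys of the Dchs1 line. The ends did not overlap (-1.07 ± 0.16, adjusted p = 1.35e-04). Fat4 kidneys had Odc1 at 211, 385 and 516 CPM against 369, 614 and 959 CPM, and the ends overlapped (-0.77 ± 0.17, adjusted p = 0.0112). The sex chromosome genes, 7 tested, gave 0 calls in either line. Cholesterol synthesis had 7 of 18 members lower and 1 higher in the Dchs1 line, led by Cyp51 (-1.06 ± 0.12, adjusted p = 1.05e-05) and Idi1 (-1.07 ± 0.15), and 0 called in the Fat4 line, where Cyp51 had -0.30 ± 0.13 and Idi1 -0.46 ± 0.16. Under limma 3 of 17 cholesterol genes, and 148 of all 12410 genes tested, were lower in the Dchs1 line.

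**Figure D3:**
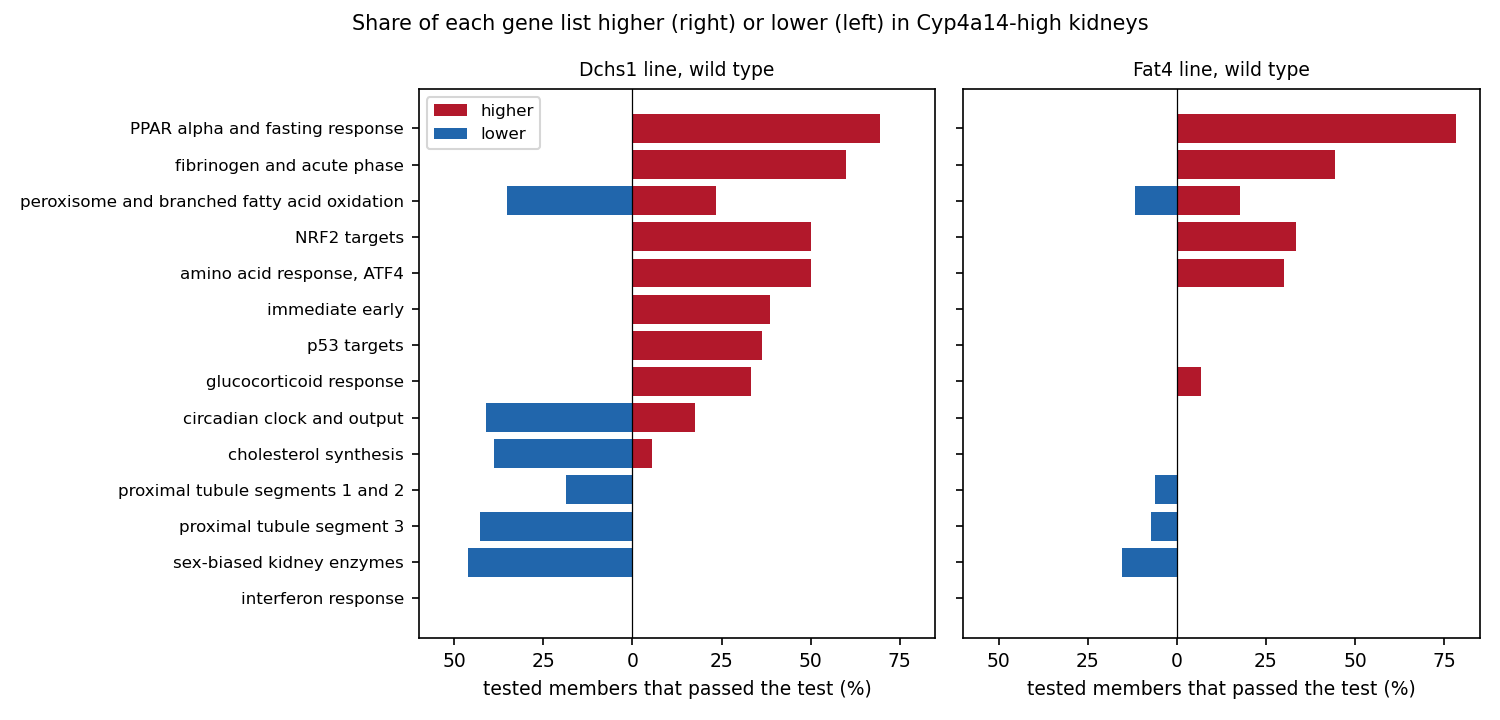
Share (%) of the tested members of 14 gene lists that were higher (red, to the right) or lower (blue, to the left) in kidneys high in Cyp4a14, in the wild-type kidneys of both lines. The PPAR alpha and fasting list is the longest bar in both panels, at 16 and 18 of 23 members. The circadian, cholesterol, immediate early and p53 lists have bars in the Dchs1 line alone.

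Clock output genes moved with the ranking in the Dchs1 line. Of 17 circadian genes 7 were lower (Dbp, Tef, Hlf, Per3, Usp2, Nr1d1 and Nr1d2) and 3 higher (Cry1, Npas2 and Nfil3), against 0 called in either direction in the Fat4 line. With limma on log2(TPM + 1) 3 of 16 were lower and 3 higher in the Dchs1 line. Over all genes limma called 148 of 12410 lower and 447 higher there. The circadian median went from -0.30, beside 0.0074 over all genes, to 0.0077, beside 0.079 over all genes. Dbp, a transcription factor whose level swings over the day, was at 2.13, 4.45 and 9.25 CPM in high and 4.63, 13.1 and 30.9 CPM in low kidneys of the Dchs1 line (-1.62 ± 0.28, adjusted p = 5.2e-04). Dbp of the Fat4 line was at 2.12, 5.28 and 7.65 CPM against 4.63, 6.68 and 9.06 CPM (-0.37 ± 0.17, adjusted p = 0.232). Among the 30 Dchs1 kidneys, 7 of the 10 highest in Cyp4a14 were among the 10 lowest in Dbp and 8 of the 10 lowest in Cyp4a14 among the 10 highest in Dbp (Spearman -0.74, Pearson -0.82, as descriptions). The Fat4 counts were 5 and 4 of 10 (Spearman -0.33, Pearson -0.32).

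With the Dbp level as a covariate, an alternative chosen after seeing the data, the calls of the Dchs1 line went from 1706 to 12 (5 higher and 7 lower) and those of the Fat4 line from 464 to 198 (129 higher and 69 lower). Of the 1706 genes, 1703 kept their sign, and the median change was 0.649 times that without the covariate. The genes still higher in the Dchs1 line were Plin2 (1.76), Cbr3 (1.29), Tubb2a (0.92), Acot2 (0.91) and Acot1 (0.83), and those lower included Col19a1 (-1.17), Hsd3b3 (-0.99) and Slc9a8 (-0.82). Of the PPAR alpha list, 3 of 23 stayed called in the Dchs1 line and 13 of 23 in the Fat4 line. The other lists had 0 called in the Dchs1 line under this fit, fibrinogen among them (Fga 0.71 ± 0.58, adjusted p = 0.878), while Fga kept 1.17 ± 0.23 (adjusted p = 0.00874) in the Fat4 line. The Cyp4a14 and Dbp rankings of the Dchs1 line share most of their libraries and cannot be told apart by this design.

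**Figure D4:**
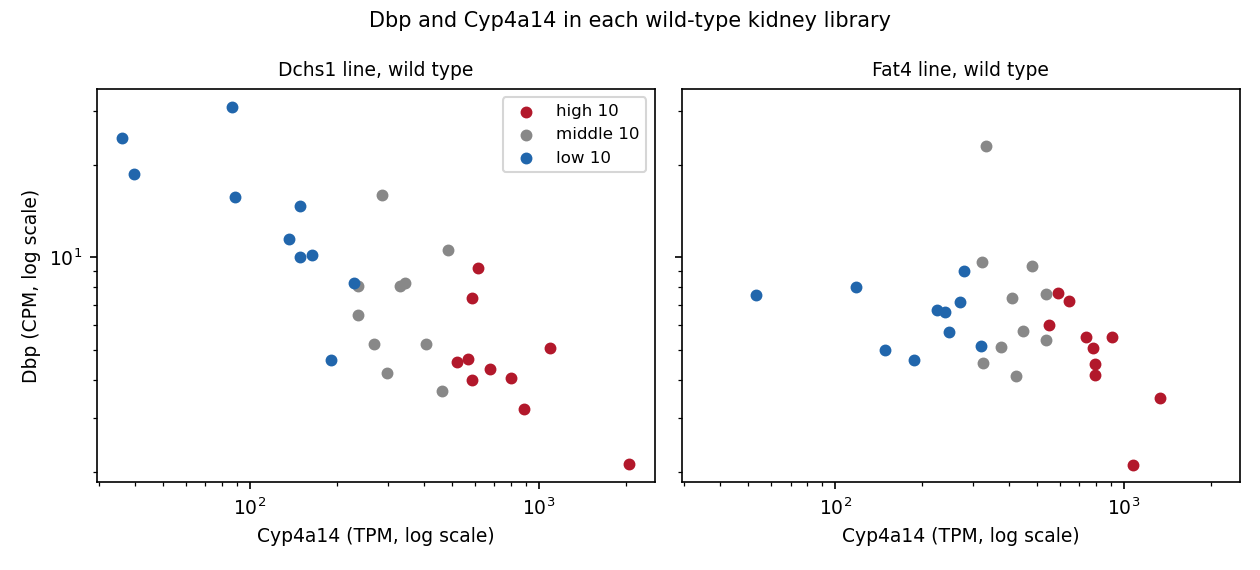
Dbp (CPM) against Cyp4a14 (TPM), both on log scales, for each of the 30 wild-type kidney libraries of each line, with the high 10 in red, the middle 10 in grey and the low 10 in blue. Dbp is between 4.63 and 30.9 CPM in the low and 2.13 and 9.25 CPM in the high kidneys of the Dchs1 line, and the ends of the Fat4 line overlap more, at 4.63 to 9.06 and 2.12 to 7.65 CPM.

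Lists that a stressed or mixed sample could carry were read in the same way. Interferon response genes and the markers of macrophages, T and NK cells, neutrophils, erythroid cells, glomerulus, fibroblasts, thick ascending limb, distal tubule and collecting duct had 0 called in both lines. Immediate early genes, which respond quickly to many stimuli, had 5 of 13 higher and 0 lower in the Dchs1 line (median 0.41) and 0 called in the Fat4 line (median -0.07). Targets of p53 had 4 of 11 higher and the glucocorticoid list 5 of 15 higher in the Dchs1 line, beside 0 of either kind and 1 (Pdk4) in the Fat4 line. Hepatocyte markers had 1 of 9 higher and 1 lower in the Dchs1 line and 0 called in the Fat4 line. Heat shock and unfolded protein genes had 3 of 16 higher in the Dchs1 line and 0 called in the Fat4 line. Endothelial markers had 3 of 10 higher and 0 lower in the Dchs1 line (median 0.20) and 0 called in the Fat4 line (median -0.11). In the Dchs1 line 2 of 7 genes of MHC class II presentation, 1 of 6 B and plasma cell markers and 1 of 10 adipocyte markers were lower. These lists had 0 called in the Fat4 line. Over all genes tested, 5.4% were higher and 6.74% lower in the Dchs1 line, against 1.97% and 1.37% in the Fat4 line. A list count of 1 is too small to set apart from these shares. The summed adipocyte list lay at 621.8 to 1095 CPM in high and 826.1 to 1759 CPM in low kidneys of the Dchs1 line, and the endothelial list at 790.5 to 1052 CPM and 702.4 to 859 CPM, so both overlapped between the ends. Most members of each of these lists did not pass, and the part of such cells or responses in the other changes was not tested.

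The difference between the lines was tested over the 40 wild-type libraries. Of 14251 genes tested, 0 passed (0.0%), where 1792 had an unadjusted p under 0.05 and DESeq2 called 1, Rnf24. With the number stretch as a covariate 38 passed, 24 with a higher and 14 with a lower change in the Fat4 line, so the count depends on that term. A gene that passed in one line and not in the other is therefore not shown by those calls to differ between the lines. Rnf24, a membrane-bound ubiquitin ligase, was at 10.9, 16.8 and 22.5 CPM in high and 21.3, 32.6 and 66.1 CPM in low kidneys of the Dchs1 line (-1.17 ± 0.18), and at 16, 24.4 and 29.1 CPM against 16.7, 19.8 and 47.6 CPM in the Fat4 line (0.01 ± 0.15). The Fat4 change of Rnf24 was 0.06 ± 0.15 without the library ranked first and 0.19 ± 0.095 without that ranked last. Its difference, Fat4 minus Dchs1, was 1.18 ± 0.25 (adjusted p = 0.24), and 1.22 ± 0.19 (adjusted p = 0.00224) without the library ranked last in each line, which left 2 genes called. The other is Slc9a8, at 0.86 ± 0.16 (adjusted p = 0.0198). The early response gene Ier3 and the metallothionein Mt2 were higher in the Dchs1 line, at 0.47 ± 0.13 and 0.79 ± 0.16, and had -0.34 ± 0.13 and -0.13 ± 0.13 in the Fat4 line, with adjusted p = 0.24 for each difference.

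Genes called in the Dchs1 wild types mostly kept their sign in the Fat4 wild types, for 645 of 755 higher genes (85.4%) and 853 of 940 lower genes (90.7%) tested in both. In Fat4 heterozygotes 707 of 756 (93.5%) and 921 of 939 (98.1%) did so. In Dchs1 heterozygotes the counts were only 401 of 759 (52.8%) and 524 of 929 (56.4%). Of the 276 genes called alike in the wild types of both lines, 220 had the larger change in the Dchs1 line. The Cyp4a14 range of that line is also wider, and its part in the size of the changes was not tested. The 10 libraries in the middle of the Dchs1 ranking, which did not enter the test of the ends, had a mean level between the ends for 732 of the 759 higher and 914 of the 947 lower genes. Within those 10 libraries alone, the correlation with Cyp4a14 had the sign of the call for 701 of 759 higher genes (92.4%) and 674 of 947 lower genes (71.2%). The Fat4 middle libraries did so for 253 of 274 (92.3%) and 87 of 190 (45.8%). The matching shares over all genes tested were not taken, so these signs, levels and correlations describe the called genes alone.

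**Figure D5:**
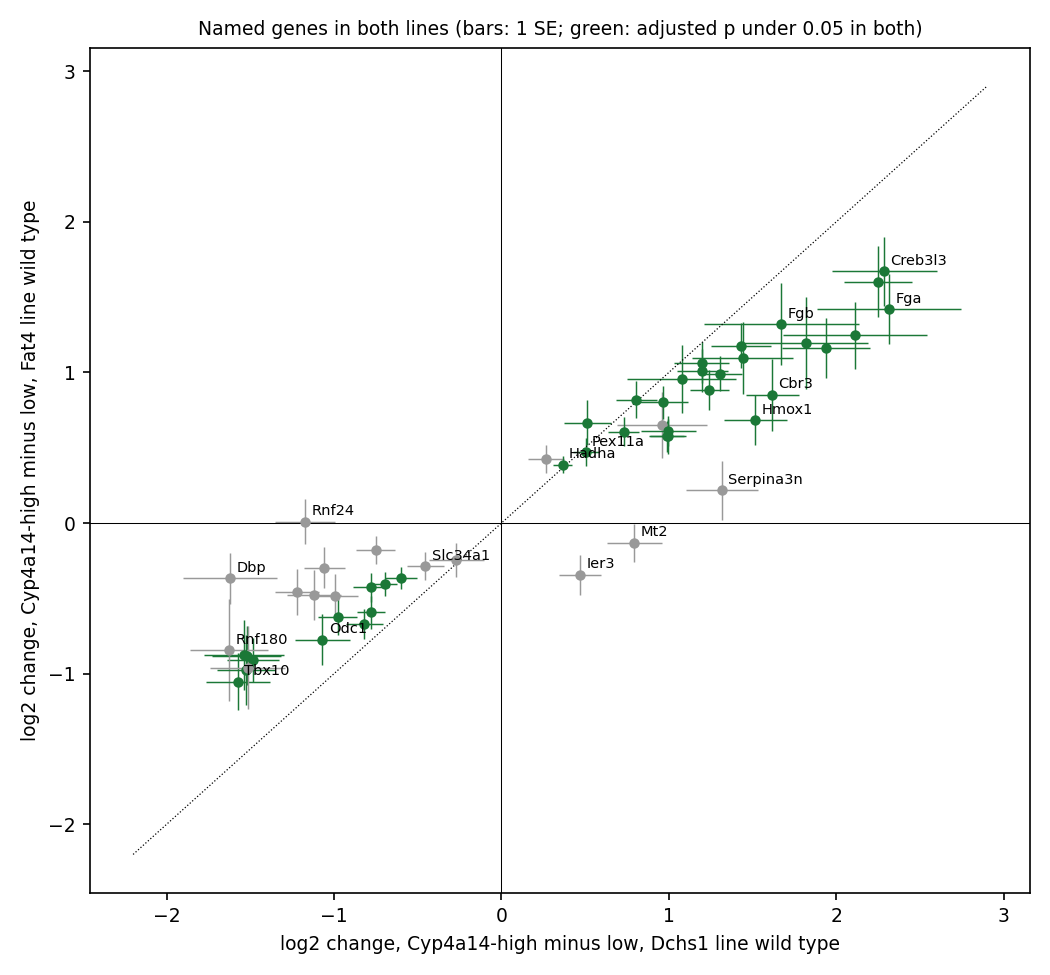
Log2 change (high minus low in Cyp4a14) of the named genes in the Dchs1 line (horizontal) and the Fat4 line (vertical), with bars of 1 SE and genes with an adjusted p under 0.05 in both lines in green. Creb3l3 lies at 2.29 and 1.67, and most points lie between the horizontal axis and the dotted line of equal change. Serpina3n, Mt2, Ier3 and Rnf24 lie away from the others. Many of these genes were named by their p-value or change in the Dchs1 line, and Mt2, Ier3 and Rnf24 by the difference between the lines. The position of the points is thus no independent result.

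Heterozygous kidneys were ranked in the same way. In the Fat4 line 1224 of 13875 genes were higher (8.82%) and 932 lower (6.72%), and 252 of the 276 genes called alike in the wild types of both lines were called in the same direction. There Plin2 changed by 2.06 ± 0.18, Fga by 1.90 ± 0.26 and Hsd3b3 by -1.25 ± 0.17, and 19 of 23 genes of the PPAR alpha list were higher. In the Dchs1 line, where the Cyp4a14 range was 2.11-fold, 3 of 14020 genes were called (0.0214%), Calb1, Slc7a8 and Acss1, while 2788 had an unadjusted p under 0.05 and DESeq2 called 386. Leaving out the library ranked 9, which stood apart from the others, and refilling the high end to 10 gave 1505 calls. Without the library ranked first or last, and with no other put in its place, 0 genes were called. Cyp4a10 had 0.28 ± 0.08 (adjusted p = 0.0929) and Plin2 -0.04 ± 0.25 (adjusted p = 0.949) in those kidneys. Of the PPAR alpha list 0 of 23 genes were higher there, with a median change of 0.14 beside -0.0069 over all genes. With all libraries, 0 genes were called in all 4 rankings.

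Over the 30 wild-type kidneys of the Dchs1 line and 12439 genes with a mean of at least 1 TPM, the gene most like Cyp4a14 was Cyp4a10, with a Spearman correlation of 0.98 and a Pearson correlation of 0.98 on log2(TPM + 1). Acot1 (0.97 and 0.95), Plin2 (0.96 and 0.90) and Acot2 (0.96 and 0.92) were also close to it, as were Kcnip2 (0.93 and 0.91), Cbr1 (0.92 and 0.88) and Hmox1 (0.91 and 0.88). In the Fat4 line the Spearman values of Cyp4a10, Acot1, Plin2 and Acot2 were 0.97, 0.95, 0.93 and 0.93, and those of Cbr1 and Hmox1 were 0.80 and 0.66. The most opposed genes were the kinesin Kif20b (-0.87, and -0.42 in the Fat4 line), Hsd3b2 (-0.86 and -0.67), Hsd3b3 (-0.85 and -0.73) and the scaffold Slc9a3r1 (-0.85 and -0.56). In Dchs1 heterozygotes Cyp4a10 kept 0.78 and Plin2 had 0.17. These correlations are descriptions over libraries that include the ends chosen by Cyp4a14.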

How the data were processed

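Messenger RNA of kidneys from the Dchs1 and Fat4 lines was sequenced from poly(A)-selected, strand-specific, single-end libraries, per the labels' protocols. The authors deposited estimated counts per gene and library and the same libraries as TPM. Base calling with bcl2fastq 2.17, a quality check with FastQC and the build GRCm38 are named per the submitters' processing notes. The aligner was not given in the sources used here, nor was the counting program. In the kidney libraries 16.57% (Dchs1) and 16.01% (Fat4) of the deposited estimated counts were not whole, and how reads matching several genes were treated is not stated.

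Libraries were ranked within each line and genotype by the deposited TPM of Cyp4a14. Rounded estimated counts entered edgeR 4.0.16 (R 4.3.3, TMM scaling, filterByExpr with a minimum count of 10 and a minimum total of 15, quasi-likelihood F test, Benjamini-Hochberg adjustment over all genes tested except Cyp4a14, threshold 0.05). The standard error is the absolute log2 change over the square root of F. CPM use the TMM-scaled totals of the 30 libraries of a group. Alternatives used DESeq2 1.42.0, limma 3.58.1 on log2(TPM + 1), other numbers of libraries per end, the slope over all 30 libraries, a ranking by CPM, number stretches and left-out libraries. The scripts were tested on simulated counts.

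The members and the gene lists (44 lists, 577 of 583 entries matched) were chosen with earlier results of these data known. Named genes are Cyp4a14, Fga and the Cyp4a family. They also include, among calls in Dchs1 wild types with a mean of at least 1 CPM, the 10 smallest p-values, the 8 largest rises and the 8 largest falls. The 8 smallest p-values of the difference between the lines, the 8 genes most like Cyp4a14 and the 4 most opposed, and up to 4 members per list were added. A rule naming genes called in all 4 kidney groups found 0, and 12 genes called in both wild-type lines were taken in its place after their values were seen. Names given without values, such as the members called in a list, complete a count. Some genes that the rule names are not reported here.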

Additional observations from a re-analysis of the deposited data

Results flagged for a closer look

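In 22 of 216 sets of 10 libraries checked, 1 library lay far from the other 9 on log2(CPM + 1), where chance gives about 1 in 20. The Dchs1 kidney ranked first by Cyp4a14 accounts for 9 of them. It was the highest of its end in Fga (459 CPM, others 25.2 to 87.6), Fgg (91.1, others 4.11 to 22.3), Cyp4a10 (2147, others 1044 to 1482), Hmox1 (198, others 59.2 to 108), Cbr1 (84.9, others 50.2 to 65.7) and Psat1 (139, others 46.3 to 69.3). It was the lowest in Amacr (59.0 CPM, others 92.9 to 136), Nat8f1 (38.1, others 58.0 to 84.4) and Slc9a3r1 (61.3, others 88.0 to 116).

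The Fat4 kidney ranked last accounts for 5. It was the lowest of its end in Cbr1 (22.2 CPM, others 33.4 to 40.5). It was the highest in Hsd3b2 (57.0 CPM, others 23.1 to 37.4), Slc9a8 (99.1, others 34.2 to 50.1), Col6a6 (4.41, others 0.952 to 1.96) and Rnf24 (47.6, others 16.7 to 25.5).

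At the low end of the Dchs1 line, Acaa1b was at 166 CPM in the library ranked 30 (others 223 to 276), and the library ranked 29 had Ehhadh at 635 CPM (others 862 to 1204) and Aldh1a7 at 12 CPM (others 22.7 to 39.7). The library ranked 21 had the lowest Hsd3b3 of that end, 22 CPM (others 33.0 to 51.3), and Atp6v0c-ps2 at 217 CPM (others 0 to 4.33). At the high end of the Fat4 line, Fgg was at 32.5 CPM in the library ranked first (others 7.33 to 15.0), Tef at 48.9 CPM in that ranked 2 (others 69.7 to 101) and Hmox1 at 29.2 CPM in that ranked 5 (others 53.8 to 101).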

How the results depend on the processing

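The Dchs1 wild-type count of 1706 calls became 595 with limma and 12 with Dbp as a covariate, and stayed within 1.5 times under the other 13 alternatives. The Fat4 wild-type count of 464 became 782 with DESeq2, 1433 with the number stretch as a covariate, 75 with 5 and 203 with 15 libraries at each end, 885 as a slope, 1079 in the longest stretch, 285 without the library ranked first and 198 with Dbp. The 3 calls of Dchs1 heterozygotes became 386 with DESeq2, 911 with limma, and 1505 with the outlying library left out and its end refilled. They became 1480 with 5 and 8 with 15 libraries at each end, 1699 as a slope and 2422 ranked by CPM. They became 0 with the stretch, the library total or Dbp as a covariate, and without the library ranked first or last. The 2156 calls of Fat4 heterozygotes became 1310 with limma, 1225 with 15 libraries at each end, 937 in the longest stretch and 1220 with Dbp. The difference between the lines had 1 call with DESeq2, 38 with the stretch as a covariate and 2 without the library ranked last. The cause was not tested in any of these.

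Of 54 named genes, 52 were called among Dchs1 and 38 among Fat4 kidneys. In the Dchs1 line 42 lost the call under at least 1 alternative, all 42 of them with Dbp as a covariate, and in the Fat4 line 19 did. Signs turned for Cyp4a12a in the Dchs1 line with Dbp (0.063), for Serpina3n in the Fat4 line with 5 libraries at each end (-0.012), for Mt2 there with 15 (0.0050), and for Rnf24 there with 5 (-0.19) and 15 libraries (-0.20), as a slope (-0.11) and ranked by CPM (-0.14). None of these 4 was called in the line where its sign turned. The alternatives that leave out the first or last library, or use the library total or Dbp, were chosen after seeing the data. No paired analysis was possible because both ends of a ranking come from 1 group, whose numbers each name 1 library. Estimated counts from near-identical genes limit Cyp4a and Hsd3b members, and genes under about 1 CPM are thinly counted.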

Other observations

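Agt, which encodes angiotensinogen, was higher in the kidneys high in Cyp4a14 of both lines, at 33.6, 42.3 and 47.6 CPM (lowest, median, highest) against 27.4, 33.0 and 37.4 CPM in the Dchs1 line (0.35 ± 0.07, adjusted p = 0.00107) and with a change of 0.60 ± 0.08 (adjusted p = 1.63e-04) in the Fat4 line. It was the member of the renin-angiotensin list called higher in both lines, and the other calls of that list were 4 lower genes of 9 in the Dchs1 line. Carriers of organic ions, the drug transporters of the tubule, had 1 of 17 members higher and 6 lower in the Dchs1 line and 1 higher and 1 lower in the Fat4 line. Cela1, an elastase listed as a pancreas marker, was lower in both lines (-0.42 ± 0.14 and -0.42 ± 0.11), beside pancreatic Prss2 at or near 0 in every wild-type kidney. Tubb2a, a tubulin chain, was higher in both lines, at 0.99 ± 0.11 and 0.58 ± 0.10, and was among the 5 higher genes that stayed called in the Dchs1 line with Dbp as a covariate.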
